A study of Mus musculus with 3 samples.

Results

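SoxF, ETS and GATA factors are transcription factors through which endothelial cells (EC) take on and keep a vascular identity. The genes examined here are the SoxF factors Sox7, Sox17 and Sox18, the ETS factors Erg, Fli1, Ets1 and Ets2, the zinc finger factor Gata2, the homeobox factor Prox1 and the Notch effector Hey2. They were taken by symbol from the gene tables of the libraries, and all 10 were found among the 31053 genes that had a row in every library. Each had at least 1 UMI (unique molecular identifier, which counts 1 captured RNA molecule) in the blood EC of every library.

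The study profiled blood EC sorted from mouse Peyer's patches (PP), the lymphoid organs of the gut wall, by droplet 3′ single-cell RNA sequencing. There was 1 control library, labelled WT and C57BL/6, and there were 2 EC-iCOUPOE libraries (OE1 and OE2, labelled replicates 1 and 2) of genotype CDH5(PAC)CreERT2;COUP-TFIIOE/OE. In EC-iCOUPOE mice the Cdh5 promoter drives a tamoxifen-inducible Cre recombinase in endothelium, which switches on a transgene for COUP-TFII, the nuclear receptor encoded by Nr2f2 that promotes venous identity. All mice were 6 to 10 weeks old, and cells were collected between 14 and 19 days after tamoxifen. The study's methods describe littermates without Cre as controls, but its text names WT mice apart from these, and whether the mice of the WT library were littermates was not given in the sources used here. The number of mice in each library was not given in the sources used here. EC subsets were capillary EC (PP CapEC), capillary resident progenitors (CRP), arterial EC, post-capillary venules (PCV), high endothelial cells (HEC), dividing EC and 3 clusters that were left unnamed and are called here by 2 of their leading genes. Names were rebuilt from marker genes. The study's own cell labels, which cover only EC-iCOUPOE cells, put most labelled cells of the arterial clusters and of the Scgb3a1/Prom1 cluster with PP CapEC. They put most labelled cells of the cluster called CRP here with capillary EC of the PP or of the lamina propria.

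The libraries held 1441 to 6080 cell barcodes and 3548983 to 17417260 UMIs, and 1234 to 5335 cells were kept in each. Their make-up differed. Blood EC were 46.3% of the cells kept in the control library, 74.8% in OE1 and 80.6% in OE2, while fibroblast-like or reticular cells were 46.5%, 0.15% and 0.405%. Lymphatic EC (LEC) were 909 cells in OE1 and 126 in OE2. The 9 cells placed with them in the control library had 5 of 6 lymphatic markers at 0 UMIs and 20736 CPM of fibroblast markers (CPM, UMIs scaled to a common total), so no LEC level is given for control. Control and OE2 shared 12 barcodes and no other pair of libraries shared any, and leaving out the 20 kept cells concerned changed no call on the 10 factors. RNA of other cells differed between libraries too. Summed haemoglobin genes were at 3872, 2.15 and 36.7 CPM in PP CapEC and 1935, 4.72 and 17.9 CPM in PCV, and fibroblast markers in PP CapEC at 130, 0.859 and 4.45 CPM (control, OE1, OE2, as in all triplets of values that follow). Their part in the results was not tested. Before doublets were left out, cells called female by their own RNA were 4233, 1834 and 611, and male cells 215, 1163 and 212. Sex was not called in 1025, 1753 and 420 cells. With female cells only, 0 factors were called in PP CapEC, arterial EC and PCV. The factors with enough UMIs in that setting, and the share of all genes called, were not counted. OE1 was counted with another software version (3.1.0 in its file header, 3.0.2 in the others) and against a gene table that lacked 2 transgene rows the others had. Nr2f2 was called higher in every subset compared, at 13.8, 2247 and 1363 CPM in PP CapEC, 10.3, 1226 and 849 CPM in arterial EC, 252, 1938 and 1637 CPM in PCV and 10.6, 1558 and 1031 CPM in CRP.

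As background, SoxF proteins bind endothelial enhancers together with ETS proteins. Sox17 is known for arterial development, upstream of and beside Notch, and Sox18 acts before Prox1 when lymphatic endothelium is specified. ERG and FLI1 maintain EC identity in all vessels, ETS1 and ETS2 respond to growth factor signals, and GATA2 binds many of the same enhancers. COUP-TFII restrains Notch signalling in veins and cooperates with Prox1 in lymphatic vessels.

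The promoter sequence of 2 of the factors is shown because COUP-TFII was the factor raised in these mice. Only 5 genes had windows in the table used (Erg, Ets2, Gata2, Hey2 and Prox1). Of these, Erg alone matched the COUP-TFII half-site as searched here. Prox1 is the factor whose level set LEC apart. The windows are 250 bases upstream of an annotated transcription start (RefSeq, GRCm38.p6), written on the gene's strand, at chr16:95459349-95459598 (minus strand) for Erg and chr1:190170828-190171077 (minus strand) for Prox1. Capitals mark matches to the motifs searched, each on both strands. The half-site bound by COUP-TFII was searched as AGGTCA. The study's genome screen used the shorter GGTC(A/G), which also occurs in windows of Ets2 and Gata2 and in another Erg window. The motif bound by SOX proteins was ACAAT. Sites known for GATA proteins were searched as AGATAA. Those of ETS proteins were searched as CGGAAG, and those of NKX proteins as AAGTG. In the Erg window, ATTGT is the SOX motif read from the other strand. Likewise TTATCT is the GATA motif.
Erg: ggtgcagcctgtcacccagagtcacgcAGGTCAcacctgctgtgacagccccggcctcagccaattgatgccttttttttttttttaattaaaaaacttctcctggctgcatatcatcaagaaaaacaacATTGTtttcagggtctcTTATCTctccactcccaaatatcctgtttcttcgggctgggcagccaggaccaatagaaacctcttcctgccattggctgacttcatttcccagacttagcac
Prox1: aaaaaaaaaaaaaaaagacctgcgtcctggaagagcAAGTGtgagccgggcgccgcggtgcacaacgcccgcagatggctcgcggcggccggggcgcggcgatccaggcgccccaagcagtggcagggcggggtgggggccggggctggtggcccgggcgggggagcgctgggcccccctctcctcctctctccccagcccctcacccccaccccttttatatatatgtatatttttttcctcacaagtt
This Erg window was chosen from 3 for its matches, and the other 2 held none for COUP-TFII (as AGGTCA), SOX or GATA. It held 1 match each for COUP-TFII, SOX and GATA, at 223, 120 and 103 bases before the start site. The Prox1 window held 1 NKX match. Among 32851 windows of the same length, 14% held the COUP-TFII half-site, 27.7% the SOX motif, 9.99% that of GATA proteins, 13.6% that of ETS proteins and 40.7% the NKX motif. A match is a description of the letters and not a measured binding site.

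Sox17, the arterial SoxF factor, was high in arterial EC and in 1 unnamed cluster, lower in PP CapEC and nearly absent from LEC. In arterial EC it stood at 1012 CPM in control (95% Poisson interval 946.5 to 1081), 807 CPM in OE1 (732 to 887) and 877 CPM in OE2 (765 to 1000). The unnamed cluster, led by haemoglobin genes, Scgb3a1 and Prom1, followed at 755, 694 and 776 CPM. The Enpp6/Cyp1a1 cluster held 514, 475 and 604 CPM, on 12 control UMIs. In the study most labelled cells of both clusters were PP CapEC, so capillary-side cells were not all intermediate. PP CapEC held 394, 235 and 331 CPM and PCV 118, 114 and 261 CPM. The intervals of arterial EC lay above those of PP CapEC, CRP, PCV and dividing EC in all 3 libraries, and those of the Scgb3a1/Prom1 cluster did so too. Arterial EC and the Scgb3a1/Prom1 cluster were not apart in every library. In HEC Sox17 was at 57.5 CPM in control and 69.6 CPM in OE1, and in LEC it was nearly absent, at 2.6 CPM in OE1 (6 UMIs) and 3.4 CPM in OE2 (1 UMI). Arterial EC comprised 2 clusters, of which the cluster with Gja5, Gkn3 and Sema3g among its leading genes held 873, 581 and 704 CPM and the other, with no arterial marker among its leading 10 genes, 1296, 1113 and 998 CPM.

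The same gradient was seen cell by cell. After each cell was thinned to 1000 UMIs, a Sox17 UMI was found in 60.4% of arterial EC in control (exact binomial interval 55.4% to 65.3%), 57% in OE1 (49.5% to 64.2%) and 47.5% in OE2 (37.3% to 57.8%), and in 29.4%, 18.5% and 25.3% of PP CapEC. In fibroblast-like cells of the control library, which should lack Sox17, the share was 0.322% at a median of 2754 UMIs per cell, and in LEC it was 0.22% and 0.794%. Median depth was 1848, 2332 and 2366 UMIs in arterial EC and 1361, 2344 and 2208 UMIs in PP CapEC. Without thinning the Sox17 shares were 77.7%, 84.4% and 75.8% in arterial EC and 37.1%, 36.3% and 38.3% in PP CapEC.

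Sox18, the SoxF factor of both blood and lymphatic vessels, was spread more evenly. It stood at 354, 365 and 528 CPM in arterial EC, 317, 295 and 287 CPM in PP CapEC, 197, 207 and 225 CPM in PCV, and 147 and 163 CPM in the HEC of control and OE1. LEC carried 231 CPM in OE1 and 327 CPM in OE2, within the range of blood EC subsets in the same library. Arterial EC, CRP and the Scgb3a1/Prom1 cluster lay above PCV in all 3 libraries. Sox7, which is known from early vascular development, was lower throughout, with 109, 67.7 and 87.3 CPM in arterial EC, 60.8, 88 and 81.1 CPM in PP CapEC and 85.7, 81.4 and 82.2 CPM in PCV. No pair of subsets differed in Sox7 beyond the intervals in every library. In HEC Sox7 was at 24 and 32.8 CPM, and in LEC at 22.1 and 17.2 CPM.

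Gata2, which is best known from blood and endothelial progenitors, followed Sox17 in being highest in arterial EC. Its level there was 241 CPM in control (210 to 276), 192 CPM in OE1 (156 to 233) and 246 CPM in OE2 (189 to 315), above PP CapEC (105, 90.6 and 76.7 CPM) and PCV (66.1, 71 and 64.3 CPM) in all 3 libraries. The Scgb3a1/Prom1 cluster held 178, 110 and 147 CPM, and arterial EC were not apart from it in every library. HEC had 22.4 and 26.3 CPM and LEC 42.4 and 24.1 CPM. The share of thinned arterial EC with a Gata2 UMI was 24.6%, 21.5% and 20.2%, against 10.8%, 7.95% and 6.38% of PP CapEC and 0.121% of the fibroblast-like cells of control. Without thinning the Gata2 shares were 37.6%, 39.8% and 41.4% of arterial EC and 13.7%, 20.7% and 16.6% of PP CapEC. Over 17 sums by named blood EC subset and library, Gata2 and Sox17 had a Pearson correlation of 0.907 on the log2 scale. The unnamed clusters were not among these sums. The correlation is a description, since the sums of 1 library share its cells' handling and depth.

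**Figure D1:**
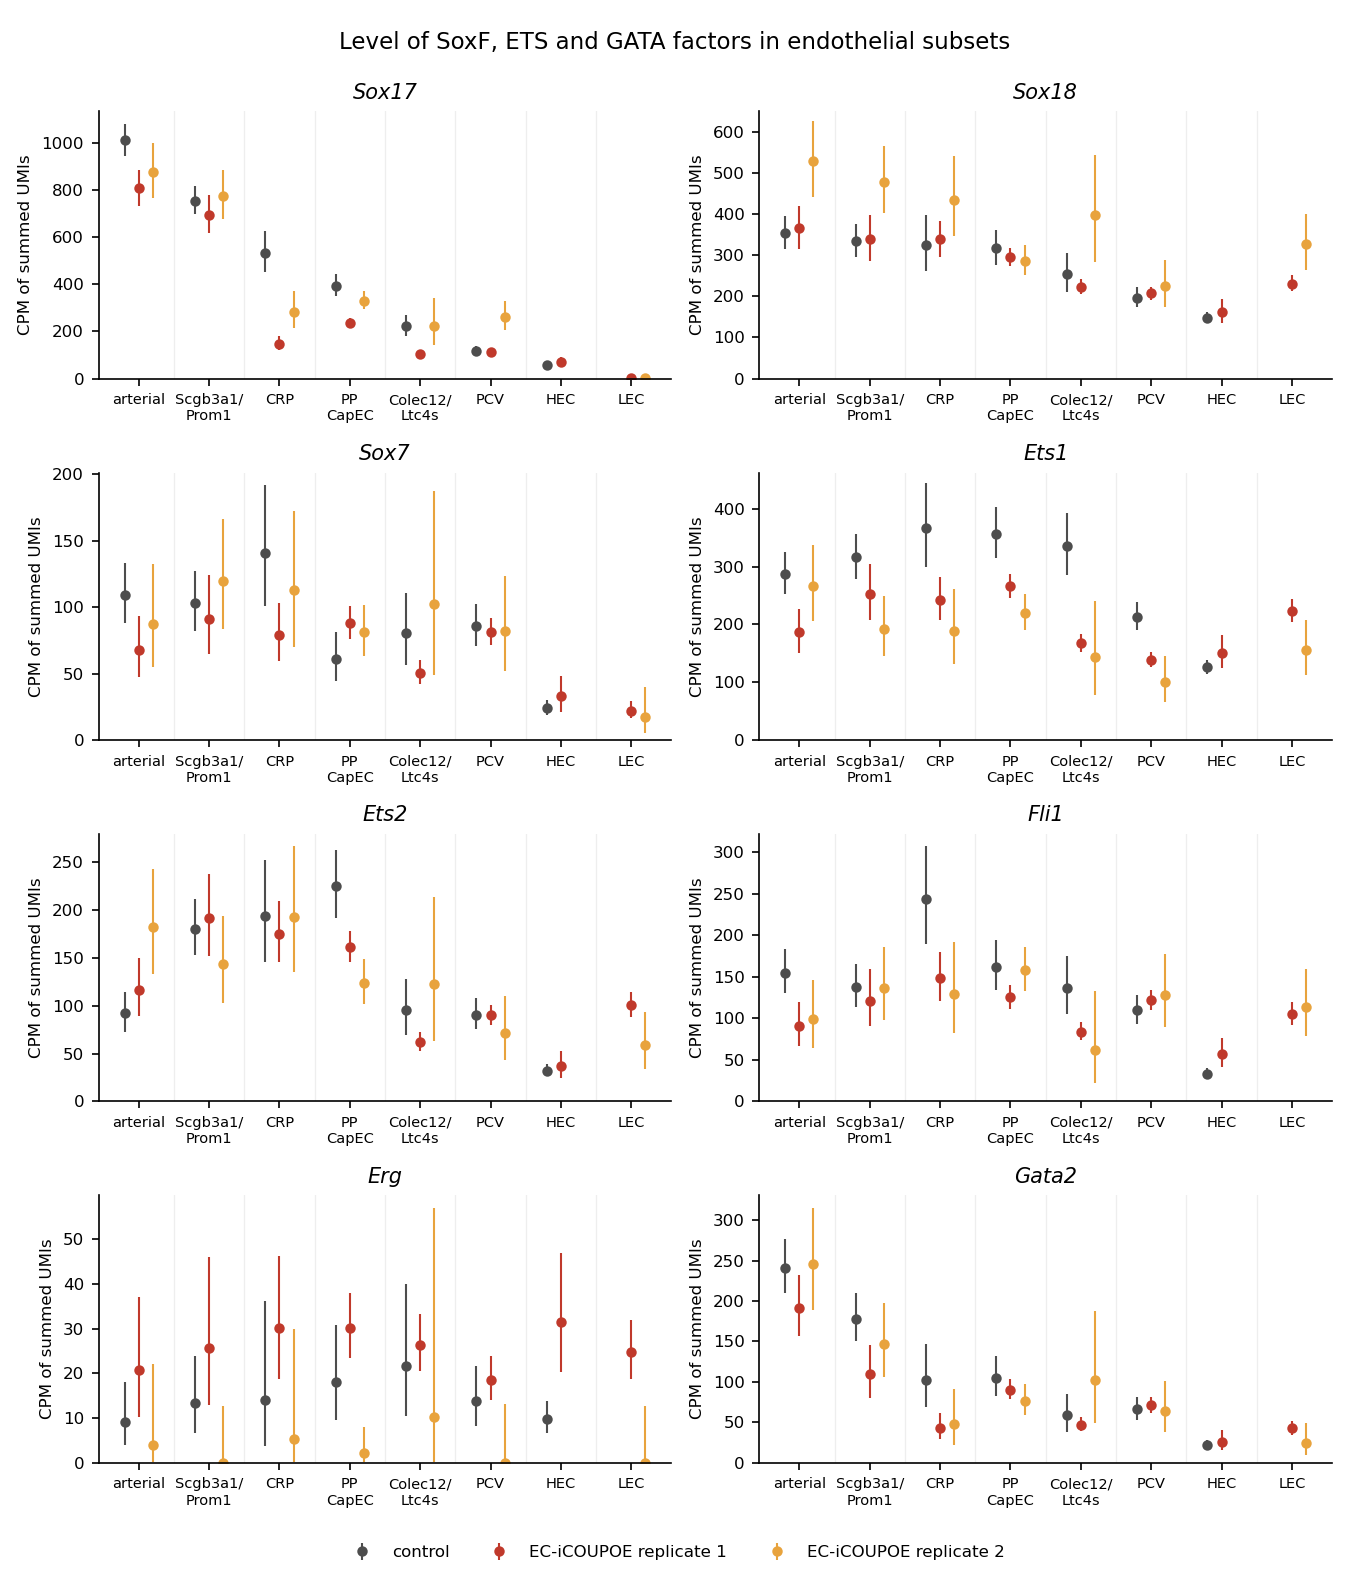
Level of 8 factors (CPM of UMIs summed over cells, linear axes) in endothelial subsets of the control, OE1 and OE2 libraries; bars are exact 95% Poisson intervals and cover counting error only, and a subset is not drawn for a library in which it has under 10 cells. Sox17 runs from 1012 CPM in control arterial EC to 2.6 CPM in OE1 LEC, and Gata2 is highest in arterial EC in every library shown.

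The ETS factors set fewer subsets apart. Ets1 was at 357, 266 and 220 CPM in PP CapEC and at 213, 139 and 100 CPM in PCV, and was higher in PP CapEC in all 3 libraries. In LEC it was at 223 and 155 CPM. Ets2 was higher in CRP (194, 176 and 193 CPM) than in PCV (90.7, 90.2 and 71.5 CPM) in all 3 libraries. Fli1 was at 162, 125 and 158 CPM in PP CapEC, 110, 122 and 129 CPM in PCV and 105 and 114 CPM in LEC. No pair of subsets with at least 10 cells in all 3 libraries was apart in Fli1. HEC and LEC fell outside that rule. Fli1 in HEC was at 32.9 CPM in control and 56.5 CPM in OE1, against 243 and 148 CPM in CRP. HEC, the cuboidal cells through which lymphocytes enter, had the lowest Fli1 and Ets2 of the subsets in control, at 32.9 and 32 CPM. Over the 3 libraries together, HEC had a median of 7131 UMIs per cell against 1358 to 4916 UMIs in the other blood EC clusters, although in control dividing EC (10527 UMIs) exceeded HEC (7349 UMIs). Whether the low CPM of these factors in HEC reflects fewer of their transcripts or more of all others was not tested.

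Ets1 and Fli1 lie side by side on chromosome 9 and Erg and Ets2 on chromosome 16. In GRCm38 Fli1 spans chr9:32422204-32542861 and Ets1 starts 93359 bp beyond it at chr9:32636221-32757820. Erg spans chr16:95359169-95586593 and Ets2 starts 115481 bp beyond it at chr16:95702075-95721051. Over the 17 sums of named blood EC subsets the correlation of Ets1 with Fli1 was 0.616 and that of Erg with Ets2 was 0.0799. Factors on different chromosomes had higher and lower values, such as Fli1 with Sox7 (0.862) and Fli1 with Gata2 (0.503). Erg had 7 UMIs in all blood EC of OE2, which limits its value. The part of gene position in these correlations was not tested. Fli1 overlaps 5 annotated genes on its own strand, and Fli1, Sox17, Ets1 and Prox1 overlap genes on the other strand. The part of these overlaps in the counts was not tested.

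When EC-iCOUPOE was compared with control within a subset, none of the factors was called in PP CapEC, arterial EC, PCV or CRP. HEC were too few in OE2 (5 cells) to compare. Arterial EC ratios carry a further limit. The study could identify mature Gkn3-positive arterial EC only in its WT cohort. Here Gkn3 had UMIs in arterial EC of control and OE1 but not of OE2. The study's labels put most labelled cells of the arterial clusters with PP CapEC. The part of this in the arterial ratios was not tested. A call required that OE1 and OE2 each differ from control by 2-fold or more, in the same direction. With 1 control library there is no estimate of the spread between controls and no test was made, so ratios carry counting error only. In PP CapEC 0 of 8 factors with at least 50 UMIs in 1 library were called, where 8.39% of 5878 genes were. In arterial EC it was 0 of 7, where 5.19% of genes were called, in PCV 0 of 8, where 4.78% were, and in CRP 0 of 6, where 8.55% were. In the Scgb3a1/Prom1 cluster it was 0 of 7, where 4.11% were. With so few factors, a count of 0 is near the background share. The median log2 ratio of the factors was −0.42 in PP CapEC against −0.05 for all genes, −0.27 against −0.13 in arterial EC, 0.03 against −0.07 in PCV and −0.68 against 0.07 in CRP. Another scaling (TMM) moved all PP CapEC ratios of OE2 up by 0.14 and changed no call on the factors. With OE2 alone Sox17 (2.20-fold higher) and Ets1 (2.13-fold lower) would have been called in PCV, and with OE1 alone Sox17 (3.59-fold lower) in CRP. In the Enpp6/Cyp1a1 cluster, where control had 12 cells and at most 12 UMIs of any factor, 0 of 7 factors were called and 30.9% of genes were.

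Ets1 was lower in EC-iCOUPOE than in control in every comparison of 6 subsets (PP CapEC, CRP, arterial EC, PCV and the Scgb3a1/Prom1 and Colec12/Ltc4s clusters). All 12 log2 ratios were below 0, from −1.23 to −0.11, with a median of −0.66. In PCV the mean log2 ratio was −0.86 ± 0.34 (SD, n = 2 libraries, which share 1 control), on 294, 443 and 28 UMIs. In PP CapEC it was −0.56 ± 0.19, in CRP −0.78 ± 0.26 and in arterial EC −0.37 ± 0.36. Counting intervals excluded 0 in both EC-iCOUPOE libraries in PP CapEC, CRP, PCV and the Colec12/Ltc4s cluster, but not in arterial EC, where OE2 stood at −0.11 (−0.52 to 0.28). In dividing EC Ets1 was not lower, with ratios of 0.32 (−0.26 to 0.93) and 0.03 (−1.03 to 1.01). Nor was it lower in HEC of OE1, since control HEC were at 126 CPM and the lowest OE1 subset at 139 CPM. Outside endothelium, pericytes or smooth muscle cells held Ets1 at 173, 120 and 50.3 CPM, on 75, 112 and 14 UMIs. Both intervals there lay below 0, at −0.53 (−0.97 to −0.09) and −1.79 (−2.72 to −0.95). Blood EC markers in these cells were at 3108, 3859 and 603 CPM, and their part was not tested. The only call was in the Colec12/Ltc4s cluster, at 336, 167 and 143 CPM, where 1 of 8 factors was called against 8.58% of genes. HEC markers in that cluster were at 6659, 923.5 and 531 CPM, its cells carry mixed labels in the study, mainly of HEC and PP CapEC, and the part of this in the Ets1 values was not tested.

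Control and EC-iCOUPOE PP CapEC were found mainly in separate clusters, which limits these ratios. One cluster, led by Scgb3a1 and haemoglobin genes, held 412 of the 483 control cells and only 41 and 29 cells of OE1 and OE2, and Ets1 there was at 362, 253 and 158 CPM. Another held 18 control cells and 528 and 285 EC-iCOUPOE cells, and Ets1 there was at 228, 267 and 211 CPM on 6 control UMIs, with OE1 above control. In both PCV clusters Ets1 was lower in both EC-iCOUPOE libraries, at 218, 134 and 105 CPM and at 202, 150 and 79.3 CPM.

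Other ETS ratios depended on the subset. Ets2 was lower in PP CapEC, with a mean log2 ratio of −0.68 ± 0.27 and intervals below 0 in both EC-iCOUPOE libraries, and higher in arterial EC, with 0.67 ± 0.46 (91.9, 117 and 183 CPM) and an interval above 0 in OE2 only. The difference between the 2 subsets was not tested. In the arterial cluster led by Gja5, Gkn3 and Sema3g, Ets2 was at 70.3, 39.2 and 96.4 CPM, so OE1 was below control. That cluster held 41, 12 and 10 Ets2 UMIs, under the UMI minimum, in 269, 107 and 43 cells. In the other arterial cluster Ets2 was at 136, 222 and 243 CPM, in 125, 79 and 56 cells. The part of this cluster mix in the arterial Ets2 ratio was not tested. In the PP CapEC cluster with 412 control cells Ets2 was at 218, 183 and 180 CPM, with log2 ratios of −0.25 and −0.28. Fli1 was lower in arterial EC, at 155, 90.3 and 99.2 CPM (mean log2 ratio −0.71 ± 0.10), and in CRP, at 243, 148 and 129 CPM (−0.82 ± 0.14). The OE2 interval of Fli1 in arterial EC ended at −0.02, within the shift of 0.05 there under TMM scaling. In PCV the Fli1 ratio was 0.19 ± 0.06. Within the arterial cluster led by Gja5, Gkn3 and Sema3g, Fli1 was past 2-fold lower in both libraries, at 153, 55.5 and 38.6 CPM, on 89, 17 and 4 UMIs. In the other arterial cluster it was at 160, 138 and 142 CPM, with log2 ratios of −0.22 and −0.18, on 46, 31 and 21 UMIs, under the UMI minimum.

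Sox17 was lower in PP CapEC and CRP of EC-iCOUPOE mice. Its mean log2 ratio was −0.50 ± 0.35 in PP CapEC and −1.37 ± 0.67 in CRP, where 532 CPM in control (a cluster with mixed labels in the study, as above) stood against 148 CPM in OE1 and 285 CPM in OE2. The OE2 value was 1.87-fold below control and so short of 2-fold. Counting intervals excluded 0 in both libraries in both subsets, but the OE2 interval in PP CapEC ended at −0.01, within the shift of 0.14 under TMM scaling. In the PP CapEC cluster with 412 control cells Sox17 was at 432.5, 211 and 472 CPM, so OE2 was not below control. In the cluster with 18 control cells it was lower in both, at 533, 292 and 355 CPM on 14 control UMIs. In arterial EC the ratio was −0.27 ± 0.09, with the OE2 interval reaching 0.01. By arterial cluster, the log2 ratios were −0.59 and −0.31 where Gja5, Gkn3 and Sema3g led, and −0.22 and −0.38 in the other. In PCV OE1 was level with control and OE2 was above it (log2 ratios −0.06 and 1.14). The EC-iCOUPOE libraries differed from each other by more than counting error in PP CapEC, CRP, PCV and the Colec12/Ltc4s and Enpp6/Cyp1a1 clusters. OE2 was the higher each time. In dividing EC Sox17 was called higher, at 52.3, 174 and 233 CPM on 12, 141 and 22 UMIs, as 1 of 5 factors where 11.3% of genes were called. Sox18 was not called there but had both intervals above 0, at 0.71 (0.13 to 1.33) and 1.01 (0.17 to 1.84). The median log2 ratio of the 5 factors was 0.86 in dividing EC against 0.19 for all genes. Dividing EC were 23, 150 and 20 cells, with a median of 10527, 4532 and 4205 UMIs per cell, and fibroblast markers in them were at 357, 1.24 and 0 CPM. HEC markers in them were at 31675, 1246 and 339 CPM and capillary markers at 1590, 8628 and 6001 CPM. Control HEC had Sox17 at 57.5 CPM. The part of these values in the Sox17 call was not tested.

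Sox18, Sox7 and Gata2 were called in none of these subsets. Sox18 had 9 of 12 ratios above 0, from −0.18 to 0.65, and in PP CapEC its mean log2 ratio was −0.12 ± 0.03. Sox7 was above control in PP CapEC, at 0.47 ± 0.08, with the OE1 interval above 0 (0.06 to 1.04) and that of OE2 spanning it (−0.14 to 0.99). The direction did not hold in every PP CapEC cluster. In the cluster with 528 and 285 EC-iCOUPOE cells Sox7 was past 2-fold lower, at 228, 93.3 and 83.5 CPM on 6 control UMIs, as was Ets2, at 343, 167 and 130 CPM on 9 control UMIs. In a cluster of 11 control cells Sox17 was past 2-fold lower, at 400.2, 138 and 197 CPM, also on 9 control UMIs. In arterial EC the mean log2 ratio of Sox7 was −0.51 ± 0.26. Gata2 had ratios from −0.70 to 0.80 in the 5 subsets where it had enough UMIs. In CRP it was under the UMI minimum, with 29, 30 and 9 UMIs and 102, 43.2 and 48.3 CPM.

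**Figure D2:**
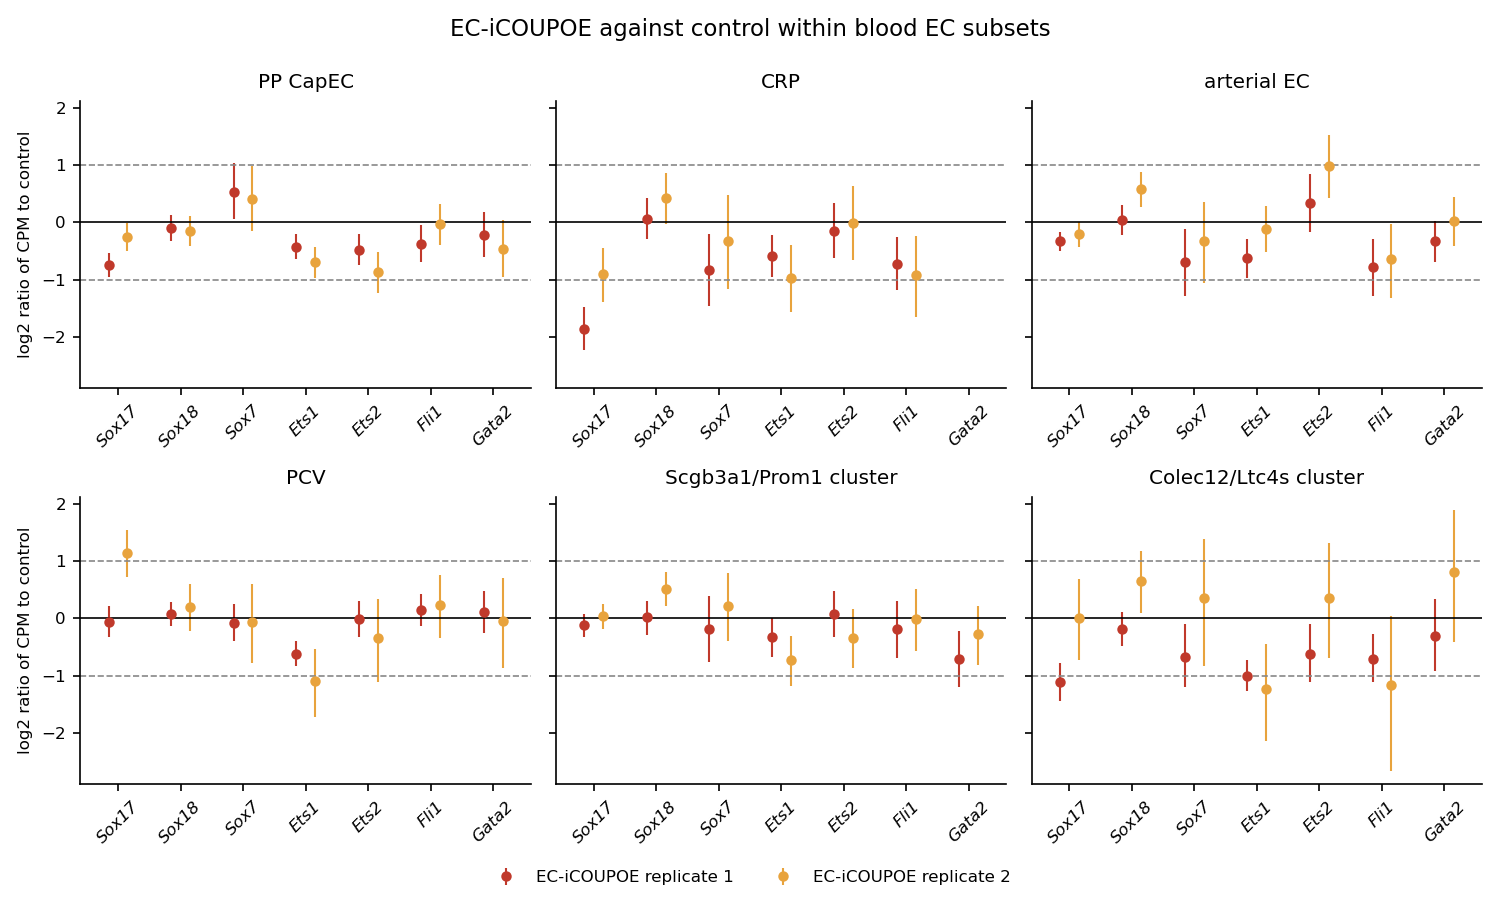
Log2 ratio of CPM in OE1 and OE2 to the control library for 7 factors in 6 blood EC subsets; points are libraries, bars are exact 95% counting intervals, dashed lines mark 2-fold, and factors below 50 UMIs in every library, and Erg, are left out. Ets1 lies below 0 in all 12 positions, and Sox17 in CRP is at −1.85 in OE1.

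Erg, the most EC-restricted ETS factor, could not be compared between genotypes because the EC-iCOUPOE libraries differed from each other. Blood EC held 98 UMIs in control (12.2 CPM), 323 in OE1 (24.8 CPM) and 7 in OE2 (2.87 CPM). OE1 was thus 8.64-fold above OE2, and of 10249 genes only 70 were as far apart in either direction and 16 as far in the same direction. Every subset of OE1 lay between 18.5 and 31.5 CPM, LEC included at 24.7 CPM. OE1 is also the library with the other software version and gene table, and the part of this in the Erg difference was not tested. No gene is annotated as overlapping Erg.

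Over whole libraries the same factors gave another picture. These whole-library sums included the 138, 96 and 9 doublets and the 17, 12 and 12 cells with markers of another type, which the subset sums leave out. All factors other than Erg were higher in both EC-iCOUPOE libraries than in control, and 2 of 10 factors, Sox18 (118, 241 and 295 CPM) and Prox1 (0.891, 69.8 and 39.7 CPM), were called, where 15.5% of 11899 genes were. Ets1 had whole-library log2 ratios of 0.50 and 0.30 but −0.24 in both libraries over all blood EC, and it was lower still in most subsets. Sox18 went from 1.04 and 1.33 in whole libraries to 0.19 and 0.63 in all blood EC and to −0.10 and −0.14 in PP CapEC. The shares of blood EC and LEC differed between libraries as given above, and HEC were 442, 100 and 5 cells. The part of this make-up in the whole-library and blood EC ratios was not tested.

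**Figure D3:**
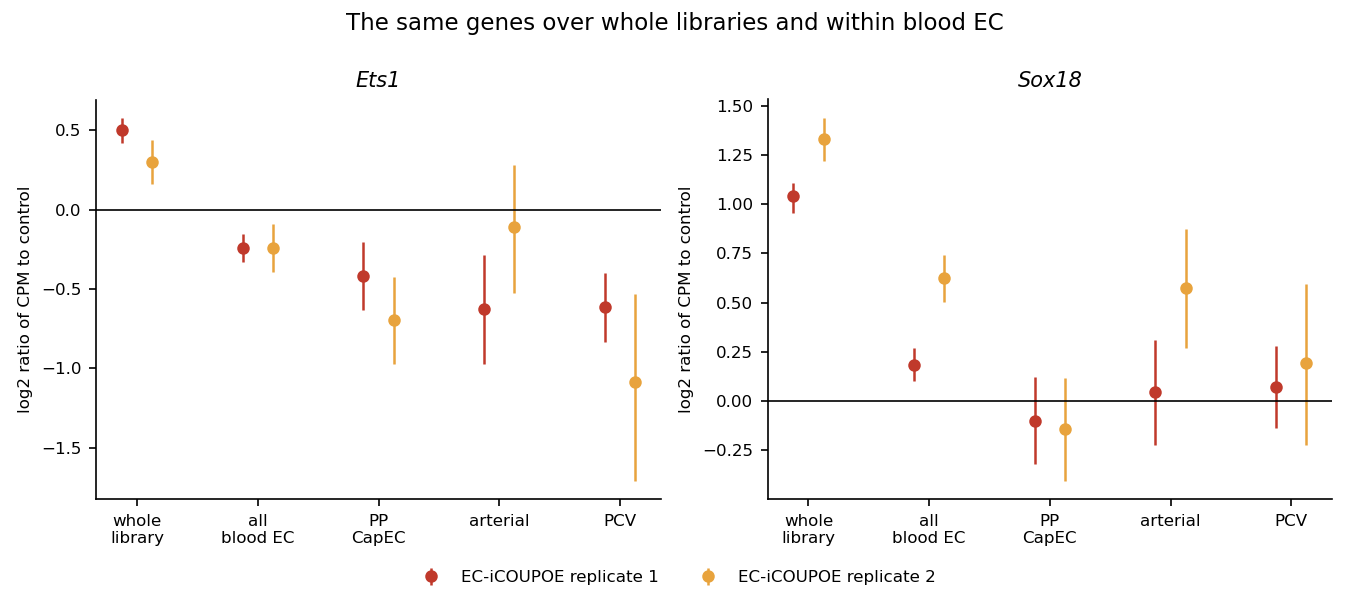
Log2 ratio of Ets1 and Sox18 CPM in OE1 and OE2 to control over the whole library, all blood EC and 3 subsets; bars are exact 95% counting intervals and the 2 panels have their own vertical axes. Ets1 is above 0 in whole libraries (0.50 and 0.30) and below 0 in all blood EC and each subset.

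Prox1, the master regulator of lymphatic identity, marked LEC and little else. LEC held 1095 Prox1 UMIs in OE1 (474 CPM) and 110 in OE2 (379 CPM), and a Prox1 UMI was seen in 34.4% and 34.1% of LEC thinned to 1000 UMIs (63.9% and 46% unthinned). Blood EC held 9, 26 and 13 UMIs, or 1.12, 2 and 5.33 CPM, in 9, 24 and 11 cells. The blood EC level was 0.421% of the LEC level in OE1 and 1.41% in OE2. For the lymphatic genes Reln and Mmrn1 the same share was 0.11% and 0.124%, and 0.212% and 0.239%. For Nts it was 0.645% and 0.337%, for Lyve1 1.78% and 0.599%, and for Flt4, which blood EC also carry, 2.84% and 9.1%. Of the cells with a Prox1 UMI, 6 of 24 in OE1 and 1 of 11 in OE2 also had a UMI of Reln, Mmrn1 or Nts, against 1.76% and 2.03% of other blood EC, and 0 of 9 did in control. The part of LEC RNA in the blood EC values was not tested. The antisense gene Prox1os, which overlaps Prox1, had 11 and 2 UMIs in LEC and 0 in the pericytes and the named blood EC subsets. In LEC Nr2f2 was at 1213 and 593 CPM, and whether control LEC differ could not be compared.

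Hey2, a transcriptional repressor downstream of Notch in arteries and mural cells, was near the detection limit in blood EC, with 33, 24 and 13 UMIs in all. In PP CapEC it had 15, 3 and 12 UMIs, and in arterial EC 5, 9 and 1. It was highest in pericytes or smooth muscle cells, at 67 CPM in control (44.9 to 96.3), 71.7 CPM in OE1 (55.6 to 91.1) and 89.7 CPM in OE2 (58.1 to 133), where the intervals overlap. Pericytes of control and OE1 also held 3108 and 3859 CPM of blood EC markers and Sox17 at 342 and 284 CPM, while those of OE2 held 603 CPM of markers and 10.8 CPM of Sox17. Hey2 in pericytes was not lower in OE2. The related Hey1 was lower in EC-iCOUPOE at 159, 32.2 and 34.5 CPM in PP CapEC and 410, 177 and 127 CPM in arterial EC. It was called lower in pericytes or smooth muscle cells too, at 150, 49.3 and 14.4 CPM on 65, 46 and 4 UMIs. Nr2f2 was called higher in these cells, at 264, 1204 and 625 CPM, where 4.46% of genes were called. The part of blood EC RNA in these pericyte values was not tested.

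**Figure D4:**
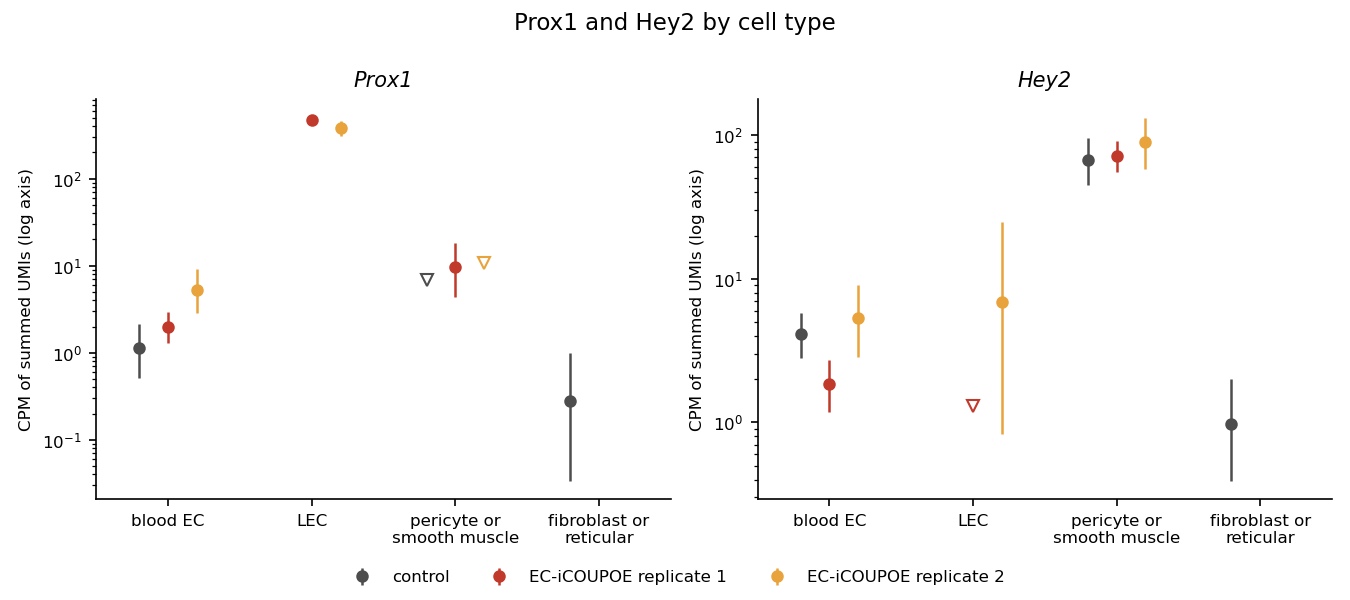
CPM of Prox1 and Hey2 on a log axis in blood EC, LEC, pericytes or smooth muscle cells and fibroblast-like or reticular cells, by library; bars are exact 95% Poisson intervals, open triangles mark libraries with 0 UMIs at the level of 3 UMIs, and a cell type is not drawn for a library with under 10 of its cells. Prox1 is at 379 to 474 CPM in LEC and at most 5.33 CPM in blood EC, and Hey2 is at 67 to 89.7 CPM in pericytes in all 3 libraries.

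Relatives and neighbours of the factors were examined as lists. Of the other ETS genes, 0 of 7 with enough UMIs were called in PP CapEC (median log2 ratio −0.02) and 0 of 5 in arterial EC, and of the other SOX and GATA genes and GATA cofactors 0 of 6 (median −0.45) and 0 of 3. Elk3, an ETS repressor, was at 318, 262 and 377 CPM in PP CapEC, and Lmo2, a bridging partner of GATA factors, at 184, 343 and 238 CPM, both named after their values were seen. In PCV 0 of 8 other ETS genes were called, and Sox13, also named after its values were seen, was called lower among 8 SOX and GATA genes, where 1.7% of genes were called lower. Of 18 pan-endothelial genes with ETS-dependent promoters or enhancers, 2 were called higher in PP CapEC, where 5.75% of all genes were, the venous clotting factor Vwf (6.91, 524 and 398 CPM, on 5 control UMIs) and the junction gene Cldn5 (26.3, 101 and 64.5 CPM). The median log2 ratio of the 18 was −0.13. In arterial EC 1 of 18, Vwf, was called higher, where 1.96% of genes were. Among other vascular factors, 16 had enough UMIs in PP CapEC, of which Nr2f2 and Foxf1 were called higher and Hey1 lower, 3 of 16 against the 8.39% of all genes called in either direction. The call of Nr2f2, which the transgene raises, was set by the design, so the count of 3 is not a result about this list. Nkx2-3, a homeobox factor of gut vessels, was not called, at 888, 489 and 355 CPM. Of the lymphatic genes around Prox1, 2 had enough UMIs in PP CapEC and 0 were called.

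Some arterial and Notch genes that SoxF factors act on or beside were called lower. In PP CapEC 5 of the 9 with enough UMIs were called lower, where 2.64% of genes were, and the median log2 ratio of the 9 was −1.52. The called genes were the netrin receptor gene Unc5b (217, 6.44 and 17.8 CPM), the connexin gene Gja4 (246, 51.9 and 57.8 CPM), the ligand gene Dll4 (123, 32.6 and 41.1 CPM), the receptor gene Notch4 (67.7, 23.2 and 22.2 CPM) and the feedback inhibitor gene Nrarp. In arterial EC 3 of 11 were called lower, where 3.23% of genes were, namely Unc5b, Dll4 and Gja5. Sox17 was 1.25-fold and 1.15-fold below control over both arterial clusters together. Its log2 ratios were −0.59 and −0.31 in the cluster led by Gja5, Gkn3 and Sema3g and −0.22 and −0.38 in the other. Nrarp and Gja5 were named after their values were seen. The count in PP CapEC was 2 when only clusters with at least 20 cells of every library were used, and no gene was called in male cells of either subset. How many genes had enough UMIs in these settings was not counted, so these counts cannot be set against 5 of 9 and 3 of 11. In the Scgb3a1/Prom1 cluster 2 of 12 were called lower, where 2.18% of genes were. In CRP it was 3 of 6, where 3.03% were, and in the Enpp6/Cyp1a1 cluster 5 of 8, where 26.4% were. In the Colec12/Ltc4s cluster 5 of 9 were called lower, where 1.94% were. Jag1, named after its values were seen, was called higher there, where 6.64% were. In PCV 0 of 6 were called (median log2 ratio −0.18), where 4.78% were, and in dividing EC 0 of 4 (median 0.76), where 11.3% were.

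Cells of the EC-iCOUPOE libraries without a Nr2f2 UMI were compared with those that had at least 1. In PP CapEC these were 37 and 844 cells in OE1 and 57 and 335 in OE2. Sox18 was at 409 CPM without and 292 CPM with a Nr2f2 UMI in OE1, and at 474 and 261 CPM in OE2, so that the log2 ratio was −0.49 (−1.02 to 0.10) and −0.86 (−1.31 to −0.40). Cells with and without a Nr2f2 UMI differed in their shares of the clusters. In OE2, 19 of the 57 were in a PP CapEC cluster led by Scgb3a1 and haemoglobin genes, against 10 of the 335. Within clusters of OE2 the Sox18 ratio was −0.72 (−1.60 to 0.31) in the largest PP CapEC cluster and 0.29 (−1.12 to 1.63) in the Scgb3a1 and haemoglobin cluster, so neither interval excluded 0. Ets1 in PP CapEC differed by less than counting error, with −0.30 (−0.90 to 0.37) and −0.06 (−0.67 to 0.61), and so did Sox17. In arterial EC Sox17 was higher with a Nr2f2 UMI in OE2, by 0.84 (0.27 to 1.45), but not in OE1, at −0.21 (−0.57 to 0.16). Of the arterial EC of OE2 without a Nr2f2 UMI, 18 of 26 were in the cluster with the lower Sox17, against 25 of 73 with one, and within that cluster the Sox17 ratio was 0.20 (−0.54 to 1.00) in OE2 and −0.71 (−1.19 to −0.21) in OE1. Elsewhere Sox17 went both ways. With a Nr2f2 UMI it was lower in the Scgb3a1/Prom1 cluster of OE2, at −0.51 (−0.90 to −0.12). In the Colec12/Ltc4s cluster of OE1 it was lower too, at −1.03 (−1.83 to −0.10). In the Enpp6/Cyp1a1 cluster of OE2 it was higher, at 1.47 (0.22 to 3.11), on 5 Sox17 UMIs in 10 cells without a Nr2f2 UMI. Gata2 in arterial EC was lower with a Nr2f2 UMI in OE1, by −0.81 (−1.47 to −0.11), and not in OE2, at 0.02 (−0.88 to 1.03). Intervals also excluded 0 for Fli1 in CRP of OE1 and Sox7 in CRP of OE2. Cells without a Nr2f2 UMI there were 17, with 11 Fli1 UMIs, and 10, with 6 Sox7 UMIs. Many factors and subsets were compared. Cells without a Nr2f2 UMI were shallower in most subsets, with a median of 1721 UMIs against 2370 UMIs in PP CapEC of OE1. In the Scgb3a1/Prom1 cluster of OE1 they were not (1832 against 1746 UMIs). Cells without a Nr2f2 UMI may still have carried the transgene.

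Genes that followed each factor most closely were sought over 19 sums by named endothelial subset and library, without the unnamed clusters. They were, for Sox17, Ly6c1 (Pearson correlation 0.958), Enah and Swap70, and for Prox1, Reln (0.991) and Slc45a3. Without LEC the correlation with Reln was 0.591. For Gata2 they were Tbc1d10a (0.893), Fbxw2 and Plekhf2, for Sox18 8430408G22Rik (0.934), Map1lc3a and Mgst3, and for Sox7 Lmo7 (0.911), Cdc42ep3 and C1qtnf9. For Ets1 they were Plekhg5 (0.891), Plekha1 and Arhgdia, for Ets2 Myct1 (0.881), Fermt2 and Unc119b, for Fli1 Tmem204 (0.891), Irf2 and Cd36, and for Erg Map3k3 (0.853), Vdac2 and Psmb4. Hey2 had too few UMIs. Sums of 1 library share its depth, and these correlations are a description.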

How the data were processed

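UMI counts per gene and barcode were used as deposited. Per the submitters' processing notes the authors made them with Cell Ranger 3.0.2 on mm10, without scaling. The labels give both v3 and v2 for the chemistry. Replicates are libraries. The factors and gene lists were chosen with earlier results of these data known.

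Cells were kept from 500 genes and 1000 UMIs upward if mitochondrial UMIs made up no more than 10%. Scrublet doublets (scanpy 1.11.5, score above 0.25, expected rate 6%) were left out, except from the whole-library sums. Cells were clustered with Seurat 5.3.0 in R 4.3.3 after reciprocal PCA integration of the libraries (2000 variable genes without the 10 factors and the gene lists around them, 30 components, 20 neighbours, resolution 1) in 2 rounds, all cells and then blood EC, and clusters were named from fixed marker lists. The doublet score, the lowest marker score (0.25), the haemoglobin share for erythroid cells (10%) and the margin (2 times the next list) for a cluster with no own marker among its leading 10 genes were set after seeing the data. Capillary EC of the lamina propria did not form a cluster of their own.

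UMIs were summed per subset and library with at least 10 cells and given as CPM. Intervals at 95% are exact Poisson, conditional (ratios) or Clopper-Pearson (shares) and cover counting error only. A library at 0 UMIs was set to 3 UMIs in a ratio. Genes with at least 50 UMIs in 1 library were called at 2-fold in both EC-iCOUPOE libraries. This rule was tested on simulated Poisson counts without spread between libraries, so its behaviour under such spread was not tested. A level is called apart where intervals do not overlap in every library. Only subsets with at least 10 cells in all 3 libraries were compared in this way, so HEC and LEC were not. Named were all 10 factors, up to 4 called genes of each list, Nr2f2, Nkx2-3, Hey1, and the 3 genes most correlated with each factor (log2 of CPM + 10), of which 1 is not reported here. The lymphatic list had 10 genes with 1 row each; Ccl21a, with several rows, was not used. Python 3.11.15, numpy 2.4.6, scipy 1.17.1, pandas 2.3.3 and edgeR 4.0.16 (TMM factors) were used. Alternatives covered clustering, doublets, depth, mitochondrial and UMI filters, sex, scaling, thinning and left-out libraries. Coordinates are those of GENCODE on GRCm38.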

Additional observations from a re-analysis of the deposited data

Results flagged for a closer look

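Sox17 was higher in both EC-iCOUPOE libraries than in control in dividing EC and lower in both in PP CapEC and CRP. In the PP CapEC cluster with 412 control cells Sox17 was lower in OE1 only, at 432.5, 211 and 472 CPM in control, OE1 and OE2. Its mean log2 ratio in dividing EC exceeded that in PP CapEC by 2.45 and that in CRP by 3.32. All of these ratios share the 1 control library, the dividing EC of control had 12 Sox17 UMIs in 23 cells, and the difference was not tested. In dividing EC, HEC markers were at 31675, 1246 and 339 CPM and capillary markers at 1590, 8628 and 6001 CPM in control, OE1 and OE2, and Sox17 was at 57.5 CPM in control HEC. Their part in the difference was not tested. Sox18 in dividing EC also had both counting intervals above 0, with log2 ratios of 0.71 (0.13 to 1.33) and 1.01 (0.17 to 1.84).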

How the results depend on the processing

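No paired analysis was possible because the control group has 1 library. Some alternatives could not move a factor's ratio by more than 1 SD. Leaving out 1 EC-iCOUPOE library stays within 1 SD by arithmetic, and the UMI filters do not alter a ratio. The counts that follow include these, so they overstate how stable the ratios are. Of 433 values of the factors' ratios under alternatives, 382 stayed within 1 SD of the value as reported and 51 did not, and 17 of 29 ratios kept their sign throughout, among them Ets1 in PP CapEC (−1.17 to −0.42), CRP (−0.97 to −0.50), arterial EC (−0.63 to −0.11) and PCV (−1.09 to −0.62). The sign turned in at least 1 alternative for Sox18, Erg, Fli1 and Gata2 in PP CapEC, Sox17 and Gata2 in arterial EC, Sox7, Sox17, Sox18, Fli1 and Gata2 in PCV, and Ets2 in CRP. The cause of the changes that follow was not tested. The count of called factors went from 0 to 1 in PP CapEC with male cells only (Ets1) and to 1 in arterial EC with no filter on UMIs (Prox1, on 1 to 2 UMIs). In PCV it ranged from 0 to 2 with 1 EC-iCOUPOE library left out (Sox17 and Ets1 without OE1). In CRP, whose alternatives were chosen after seeing the data, as were those of the arterial and Notch list, it was 1 with cells of at least 1500 UMIs (Sox17), 1 with at least 10 UMIs and 1 with no filter (Gata2 in both), and 0 to 1 with 1 library left out (Sox17 without OE2). The arterial and Notch genes called in PP CapEC, 5 as reported, were 2 in female cells, 0 in male cells, 2 in clusters with at least 20 cells of every library and 9 when the Scgb3a1/Prom1 and Enpp6/Cyp1a1 clusters were added. In arterial EC, 3 as reported, they were 0 in male cells and 3 to 5 with 1 library left out (5 without OE1). Settings that keep fewer cells can leave fewer genes with 50 UMIs. The genes or factors with enough UMIs, and the share of all genes called, were not counted for each setting. A lower count there is therefore not a result about these genes. The number of factors whose share of cells in arterial EC lay above that in PP CapEC, intervals included, in all libraries, 2 as reported, was 1 when thinned to 500 UMIs (Sox17). TMM scaling raised the PP CapEC ratios of OE2 by 0.14 and shifted other subsets by less than 0.1 on the log2 scale. Clustering each library on its own gave no value for PP CapEC and arterial EC, nor did male cells for CRP, since a library had under 10 cells there. Depth limits Hey2 and Prox1 in blood EC and every factor in OE2 subsets of under 100 cells.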
